A study of Mus musculus with 53 samples.

Results

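Genes of insulin and insulin-like growth factor (IGF) receptor signalling were examined in single mouse embryonic blood stem cell precursors. The genes were chosen by symbol and comprised the receptors Igf1r and Insr, the receptor substrates Irs1 and Irs2, the kinases Akt1 and Akt2, the GTPase Rheb, the kinase Mtor and the transcription factor Foxo3. Of these 9 symbols, 8 were among the 14833 genes listed in the deposited table, and Irs2 was not. The cells were T1 pre-HSCs, the type 1 precursors of haematopoietic stem cells (HSCs), taken at E11 from the embryonic aorta-gonad-mesonephros (AGM) region. The knockout (KO) cells carried the label mH19 delta_DMR/+, a deletion of the differentially methylated region (DMR) of the imprinted H19 locus, and the cells called wildtype carried the label mH19 flDMR/+. There were 12 KO cells, numbered 1 to 12, and 9 wildtype cells, numbered 13 to 22 without 19. The series further holds 26 adult HSCs and 5 methylation pools, which were not used here. The sources used here name neither the strain, nor a Cre driver, nor the embryo each T1 pre-HSC came from.

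Insulin and the IGFs bind receptor tyrosine kinases at the cell surface, which phosphorylate receptor substrates and thereby recruit phosphoinositide 3-kinase (PI3K). PI3K activates AKT, which releases the brake on Rheb, so that Rheb activates the mTOR complex that drives protein synthesis and growth. AKT also phosphorylates FOXO3 and keeps it out of the nucleus, and FOXO3 is known for its part in the quiescence of adult HSCs. Igf2 lies beside H19 and is controlled by the same DMR. The comparison of genotypes and the relation to Igf2 therefore ask how these genes stand in cells labelled with a deletion of that region beside a + allele.

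Igf2 was above 1 RPKM in every cell, while most of the signalling genes were found in a minority of cells. Rheb was the exception, at 1 RPKM (reads per kilobase of transcript, scaled to the mapped reads of the cell) or more in 18 of 21 cells. Each of the other 7 listed genes reached 1 RPKM, the level called detection here, in 2 to 8 of 21 cells. No embryo, litter or sort was named for any cell. Cells of a genotype were therefore handled as 1 sample, with no p-value between genotypes. Spreads are given over cells, and the exact Clopper-Pearson 95% intervals of shares cover counting error only.

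The sequencing depth behind these values is unknown. KO cells had 1517 to 8408 genes at 1 RPKM or more (median 3172) and wildtype cells 2067 to 5716 (median 4176). KO cells 2, 4, 5 and 6 had 5994, 6411, 8408 and 6215, more than any wildtype cell compared. The median of H19 was 28.1 RPKM over KO cells and 477 RPKM over wildtype cells, with no overlap. Wildtype cell 19 was left out by the rule for the cells; of 29 stretches of 500 gene rows, 24 were misaligned in it and 0 in each of the other 21 cells. The 9 T1 pre-HSC markers were all listed, and they summed to 3.46 to 1117 RPKM per KO cell and to 5.36 to 1288 RPKM per wildtype cell. Of 12 KO cells and 9 wildtype cells, Procr was detected in 9 and 8, Esam in 8 and 8, Cdh5 in 7 and 7, Kit in 7 and 5, Pecam1 in 6 and 6, Neurl3 in 6 and 7, Runx1 in 4 and 6, Cd34 in 3 and 1 and Gfi1 in 0 and 7. Ptprc, a marker of later blood cells, was detected in 1 of each. Summed macrophage markers (5 of 8 listed) started at or near 0 in each genotype. They reached 700 RPKM over KO cells and 1951 RPKM over wildtype cells. These highest sums were mostly Lyz2, and C1qb was at 0 in all cells. Cd68, Mrc1 and Fcer1g came to 1 RPKM or more only among KO cells, in 2, 1 and 1 of them. Their highest values there were 217, 130 and 4.24 RPKM. In KO cell 8 the macrophage sum was 217 RPKM, the same as the highest Cd68. Mesenchymal markers (7 of 7) reached 685 RPKM over KO cells and 243 RPKM over wildtype cells, with Pdgfra under 1 RPKM in all cells. Erythroid markers (7 of 9) reached 148 and 239 RPKM, megakaryocyte markers (3 of 4) 98.97 and 499 RPKM with Pf4 at 0 in all, and epithelial and hepatic markers (3 of 4) 25.5 and 0.0267 RPKM. The highest megakaryocyte sums, in KO cell 11 and wildtype cell 17, were Itga2b alone, which was not counted among the 9 T1 pre-HSC markers. In 6 cells the labelled identity had little support: the T1 pre-HSC markers summed to 11.1 RPKM or less in KO cells 1, 3, 9 and 11 and to 10.1 RPKM or less in wildtype cells 13 and 14, and to 90.9 RPKM or more in the other 15 cells. KO cells 11, 9 and 1 and wildtype cell 14 also had the highest mesenchymal sums, 685, 322, 183 and 243 RPKM. Most results on detection, differences and correlation with Igf2 are given below also for the 8 KO cells and 7 wildtype cells with marker sums of 50 RPKM or more. These cells are called marker-positive, a threshold set after the sums were seen. Results on the number of signalling genes per cell, the genes most like Rheb and detection over the gene lists are given for all compared cells only. The part of the other markers in the results was not tested.

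The promoters of Rheb and Irs1 are shown because these genes stand at the ends of the range of detection, in 18 and 2 of 21 cells. Both are the 250 bases before the RefSeq start of the gene on build GRCm38.p6, the minus strand written 5′ to 3′, with each CG dinucleotide in capitals.
Rheb (chr5:24842362-24842611): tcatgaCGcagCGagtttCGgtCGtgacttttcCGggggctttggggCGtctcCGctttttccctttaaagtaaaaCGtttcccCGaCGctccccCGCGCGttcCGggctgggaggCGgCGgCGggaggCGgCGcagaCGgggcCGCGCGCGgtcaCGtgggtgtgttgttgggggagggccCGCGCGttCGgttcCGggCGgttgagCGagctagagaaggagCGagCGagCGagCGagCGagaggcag
Irs1 (chr1:82291440-82291689): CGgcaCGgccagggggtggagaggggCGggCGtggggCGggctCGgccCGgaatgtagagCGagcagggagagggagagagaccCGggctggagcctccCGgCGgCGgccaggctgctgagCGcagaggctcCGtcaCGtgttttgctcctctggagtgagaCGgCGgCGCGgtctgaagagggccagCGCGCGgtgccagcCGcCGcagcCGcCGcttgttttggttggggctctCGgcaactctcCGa
The Rheb window holds 37 CG at 68.0% G and C, and the Irs1 window 28 CG at 72.4%. The median of the 32851 windows of this length in the table is 6 CG at 52.4%, with 92.1% holding at least 1 CG. A window was found for 8 of the 9 genes. Igf1r had 42 CG, Irs2 34, Foxo3 31, Mtor 19, Akt2 10 and Akt1 7, so a promoter rich in CG went with both frequent and rare detection. The CG count is a description of the letters in the window, and methylation was not analysed here.

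In the RefSeq annotation the genes lie on 7 chromosomes, and none adjoins H19 or Igf2. Igf1r (ENSMUSG00000005533.9 in the table) spans chr7:67952257-68233668 and Akt2 (ENSMUSG00000004056.11) chr7:27591552-27640826, on the chromosome that carries Igf2 (ENSMUSG00000048583.12) at chr7:142650768-142666816. Rheb (ENSMUSG00000028945.8) spans chr5:24802823-24842361, Foxo3 (ENSMUSG00000048756.7) chr10:42181845-42276695, Mtor (ENSMUSG00000028991.11) chr4:148448582-148557685, and Akt1 (ENSMUSG00000001729.10) chr12:112653821-112674884. Insr (ENSMUSG00000005534.9) spans chr8:3150922-3279649 and Irs1 (ENSMUSG00000055980.2) chr1:82233105-82291439.

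**Figure D1:**
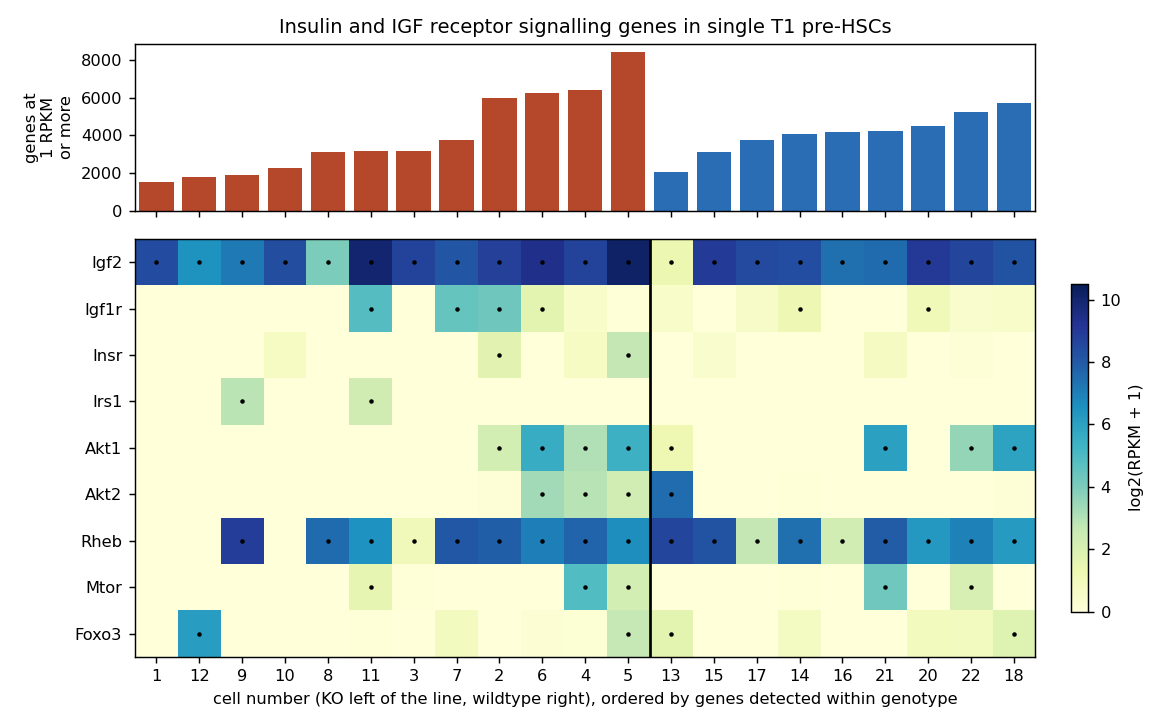
Upper panel, number of genes at 1 RPKM or more in each cell. Lower panel, log2(RPKM + 1) of Igf2 and the 8 listed genes in each of 12 KO and 9 wildtype cells, with a dot where the value is at 1 RPKM or more; Rheb has a dot in 18 of 21 cells and Irs1 in 2.

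Igf1r, a receptor through which IGF1 and IGF2 signal, was detected in a minority of cells of both genotypes, and its highest values were in KO cells. It reached 1 RPKM in 4 of 12 KO cells (33.3%, interval 9.92 to 65.1%) and in 2 of 9 wildtype cells (22.2%, 2.81 to 60.0%). The KO cells with Igf1r were cell 11 at 27.3 RPKM, cell 7 at 20.9 RPKM, cell 2 at 18.7 RPKM and cell 6 at 2.20 RPKM. The wildtype cells with Igf1r were cell 14 at 1.30 RPKM and cell 20 at 1.14 RPKM. The median was 0.0249 RPKM over KO and 0.421 RPKM over wildtype cells, so the order of the medians is opposite to that of the highest values. The mean log2(RPKM + 1) over the 12 KO cells was 1.32 ± 1.99 (SD) and over the 9 wildtype cells 0.48 ± 0.45. The difference was 0.84, and with medians over cells it was -0.47. An SD over single cells is not the error of a mean between samples, so none of the differences given here is tested. Igf1r was detected in 3 of 8 marker-positive KO cells and 1 of 7 marker-positive wildtype cells, with a difference of 1.01; KO cell 11, its highest, is not among them.

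Insr, the insulin receptor, was rarer still. It was detected in 2 of 12 KO cells, cell 5 at 5.35 RPKM and cell 2 at 2.28 RPKM, and in 0 of 9 wildtype cells, where its highest value was 0.760 RPKM. The shares were 16.7% (2.09 to 48.4%) and 0% (0 to 33.6%). Both KO cells with Insr were marker-positive. KO cell 2 was the only cell in which both receptors were detected. Igf1r exceeded Insr in 7 of 12 KO cells, against 7 of 9 wildtype cells, though both were under 1 RPKM in 7 cells of each genotype. Most values of the genes were 0 or traces: of the 168 values of the 8 genes in 21 cells, 61 were listed at 0, 58 lay between 0 and 1 RPKM, 42 of these under 0.1 RPKM, and 49 were at 1 RPKM or more.

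Irs1, the docking protein that passes the receptor signal to PI3K, was found in KO cell 9, at 6.14 RPKM, and KO cell 11, at 4.03 RPKM. The other 10 KO cells had less than 1 RPKM, and no wildtype cell had a value above 0. KO cell 11 was thus the only cell with both Igf1r and Irs1 detected. Both Irs1 cells were among the 4 KO cells poor in T1 pre-HSC markers, with marker sums of 3.46 and 6.11 RPKM in cells 9 and 11, and had the highest mesenchymal sums of all cells, 322 and 685 RPKM. Irs1 was thus detected in 0 of 15 marker-positive cells.

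Akt1, the widely expressed AKT kinase, was detected in 4 of 12 KO cells (33.3%, 9.92 to 65.1%) and 4 of 9 wildtype cells (44.4%, 13.7 to 78.8%). The KO cells were cells 6, 5, 4 and 2, at 47.4, 40.7, 7.07 and 3.62 RPKM, and Akt1 was listed at 0 in the other 8. These are the 4 KO cells with the most genes detected. In wildtype cells Akt1 was at 63.6 RPKM in cell 21, 60.4 RPKM in cell 18, 10.6 RPKM in cell 22 and 1.38 RPKM in cell 13, and listed at 0 in the other 5. The mean log2(RPKM + 1) was 1.35 ± 2.18 over KO cells and 1.86 ± 2.61 over wildtype cells, and the difference was -0.51. Without wildtype cell 21 it was 0.0093. Over marker-positive cells, with Akt1 in 4 of 8 KO and 3 of 7 wildtype cells, it was -0.19.

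Akt2, the AKT kinase best known from insulin action on glucose uptake, was detected in 3 of 12 KO cells, cells 6, 4 and 5, at 8.80, 6.34 and 3.79 RPKM. All of them also had Akt1. Among wildtype cells Akt2 was detected in cell 13 alone, at 180.7 RPKM, while the next highest wildtype value was 0.0937 RPKM. The difference of the mean log2(RPKM + 1) was -0.15, and the log2 ratio of mean RPKM (pseudocount of 1) was -3.03, which rests on wildtype cell 13; without that cell the difference was 0.68, and over marker-positive cells, with Akt2 in 3 of 8 KO cells but 0 of 7 wildtype cells, it was 1.04. In the same cell Igf2 was at 1.49 RPKM, its lowest value in either genotype, and Rheb at 393 RPKM, its highest among wildtype cells. Akt1 and Akt2 are paralogues, and no source used here says how reads shared between them were assigned.

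Rheb, the GTPase that activates mTOR complex 1, was the only one of these genes detected in most cells, and its median differed little between genotypes. It was detected in 9 of 12 KO cells (75%, 42.8 to 94.5%) and in 9 of 9 wildtype cells (100%, 66.4 to 100%). Its lowest, median and highest values were 0, 115 and 464 RPKM over KO cells and 3.67, 123 and 393 RPKM in wildtype cells. KO cells 10 and 12 were listed at 0, cell 1 was at 0.00796 RPKM and cell 3 at 1.05 RPKM, below every wildtype cell. The other 8 KO cells, at 89.1 to 464 RPKM, lay within or above the range of the wildtype cells. Among wildtype cells, cells 16 and 17 were low, at 3.67 and 5.38 RPKM, and the remaining 7 stood at 73.7 RPKM or more.

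The mean log2(RPKM + 1) of Rheb was 5.10 ± 3.64 over KO cells and 6.28 ± 2.32 over wildtype cells, a difference of -1.18 log2 units. Rheb was the only one of the 8 genes to pass the filter, which asks for 1 RPKM in 50% or more of the cells of a genotype and which 3867 genes passed. A difference of 1 or more in size is called large here, by size and without a test. By that rule 1 of 1 gene was lower in KO, against 28.0% of all genes that passed the filter, and 0 were higher, against 11.4%. Over all 8 listed genes without the filter, 1 was lower and 0 were higher by that size, against 10.6% and 5.85% of all listed genes. Akt1, Akt2 and Rheb, 3 of 8, had a difference below 0, against 47.8% of all listed genes and 64.3% of those that passed the filter. The median difference of these 8 was 0.096, and that of all listed genes was 0. The Rheb difference rested on the cells with almost no Rheb. KO cells 1, 10 and 12 had 1517, 2260 and 1796 genes detected. KO cell 9, poor in T1 pre-HSC markers, had 1891 and the highest Rheb of all cells. The part of gene number in the Rheb difference was not tested. The difference was -0.47 without the 3 KO cells under 2000 genes (1, 9 and 12), -0.72 without KO cell 1, 10 or 12, -0.81 without KO cell 3, and -0.89 to -0.97 without wildtype cell 13, 15 or 21. Over the 8 and 7 marker-positive cells it was -0.19, with Rheb detected in 6 and 7 of them; Rheb and Akt1 passed the filter there and 0 members differed by 1 or more, against 22.2% of 5178 genes higher and 20.4% lower. Of the 12 KO and 9 wildtype cells, 5 and 7 had Xist under 1 RPKM. Among these were KO cells 2, 4 and 6, with more genes detected than any wildtype cell compared. Over the cells with Xist under 1 RPKM the Rheb difference was 1.33, where 26.8% of 4967 genes were higher by 1 or more and 20.5% lower. Without the cells under 2000 genes those shares were 25.9% and 14.1% of 4317 genes.

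Mtor, the kinase at the core of both mTOR complexes, was above 0 in all 21 cells but mostly by traces. It reached 1 RPKM in 3 of 12 KO cells, cell 4 at 28.9 RPKM, cell 5 at 3.63 RPKM and cell 11 at 1.87 RPKM. In wildtype cells it was at 17.9 RPKM in cell 21 and 3.23 RPKM in cell 22. The medians were 0.00942 RPKM over KO cells and 0.00315 RPKM over wildtype cells, and the difference of the mean log2(RPKM + 1) was 0.017, with SDs of about 1.5 over the cells of either genotype. Over marker-positive cells, with Mtor in 2 of 8 KO and 2 of 7 wildtype cells, the difference was -0.0092. Every cell with Mtor also had Rheb, and 6 of 12 KO cells, against 7 of 9 wildtype cells had Rheb without Mtor.

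Foxo3, the transcription factor restrained by AKT, was detected in 2 of 12 KO cells, against 2 of 9 wildtype cells. In KO cells it was at 68.7 RPKM in cell 12 and 5.18 RPKM in cell 5. In wildtype cells it was at 2.54 RPKM in cell 18 and 2.17 RPKM in cell 13. The median was 0.0249 RPKM over KO cells and 0.669 RPKM over wildtype cells. The mean log2(RPKM + 1) was 0.84 ± 1.83 over KO cells and 0.66 ± 0.72 over wildtype cells, and the difference was 0.18. Its sign followed the measure: it was -0.70 with medians over cells, and the log2 ratio of mean RPKM was 2.02, carried by KO cell 12, without which the difference was -0.30; over marker-positive cells, cell 12 among them, it was 0.74. Foxo3 and Igf1r were never detected in the same cell, with 4 and 6 of 21 cells, counts at which few shared cells could have been seen.

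Among KO cells, those with more genes detected in all also tended to have more of these 8 genes. KO cells had 0 to 6 of the 8 genes (median 2) and wildtype cells 1 to 4 (median 2). KO cell 5, with the most genes detected of all cells, had 6. KO cells 2, 4 and 6 had 4 each, as did KO cell 11, with 3162 genes detected. KO cells 1 and 10 had 0. The Spearman correlation (rho) with the number of genes detected was 0.82 over 12 KO cells. It was 0.25 over 9 wildtype cells, where cell 13, with 2067 genes detected, had 4 of the 8. Cells of a genotype were handled as 1 sample, so the points are not replicates and rho is given as a description.

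**Figure D2:**
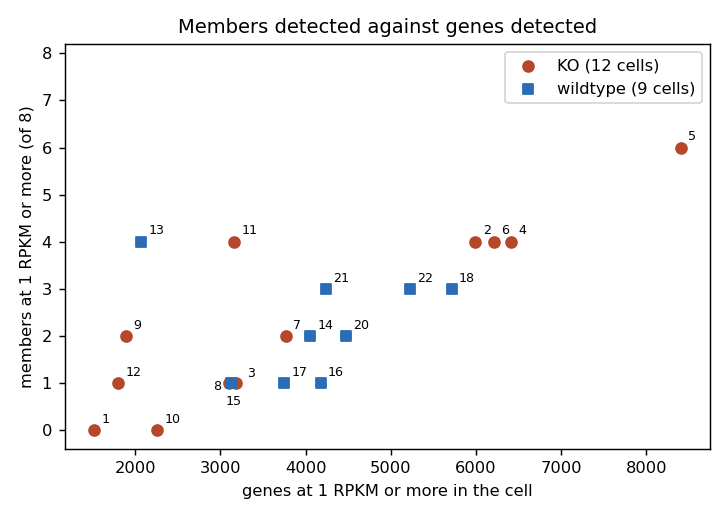
Number of the 8 listed genes at 1 RPKM or more in each cell (vertical axis) against the number of all genes at 1 RPKM or more in that cell, for 12 KO and 9 wildtype cells, with cell numbers. KO cell 5 stands at 6 of 8 with 8408 genes, and KO cells 1 and 10 at 0.

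Set against all listed genes, the 8 ranged from seldom to widely detected. A listed gene was detected in a median of 4 of 21 cells (quartiles 1 and 9), and a listed gene was at 1 RPKM in 26.8% of KO and 27.6% of wildtype cells on average. Insr and Irs1, in 2 cells each, lay below that median, Akt2 and Foxo3 at it with 4, and Mtor, Igf1r and Akt1 above it with 5, 6 and 8. Rheb was detected in more cells than 94.7% of listed genes. In order of mean RPKM over 21 cells, a measure scaled to transcript length, Rheb stood at 145, Akt1 at 11.2, Akt2 at 9.52, Foxo3 at 3.91, Igf1r at 3.51, Mtor at 2.65, and Insr and Irs1 at 0.485 and 0.484. Below Rheb, the ranges over cells of neighbours in this order overlapped, and the places of Akt2 and Foxo3 rested on wildtype cell 13 and KO cell 12.

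Igf2, the ligand, was detected in all 21 cells, with 15.0, 373 and 1164 RPKM as the lowest, median and highest values in KO and 1.49, 335 and 516 RPKM in wildtype cells. Among KO cells, the genes tended to be higher where Igf2 was higher, but so did genes in general. The Spearman rho with Igf2 over 12 KO cells was 0.68 for Akt1, 0.51 for Igf1r, 0.48 for Akt2, 0.44 for Mtor, 0.41 for Insr, 0.14 for Irs1, 0.12 for Foxo3 and -0.025 for Rheb. It was 0.5 or more in size for 2 of 8 genes, against 27.8% of 13543 listed genes with a value and 24.8% of those that passed the filter. None of the 8 had a rho of -0.5 or less, against 0.487% of listed genes and 1.22% of those that passed. The median rho of all listed genes with Igf2 in KO cells was 0.36. Igf2 itself had a rho of 0.68 with the number of genes detected in the KO cell, and Akt1 one of 0.82. Given that number, the partial rho was 0.29 for Akt1 and 0.12 for Igf1r, and none of the 8 reached 0.5.

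Among the 9 wildtype cells no such tendency was seen. There rho with Igf2 was 0.41 for Insr, 0.33 for Igf1r, -0.067 for Rheb, -0.12 for Foxo3, -0.17 for Mtor, -0.31 for Akt2 and -0.38 for Akt1, and Irs1, listed at 0 throughout, had none. It was 0.5 or more in size for 0 of 7 genes, against 17.0% of 12591 listed genes and 16.3% of those that passed the filter. A rho of -0.5 or less was found for 4.48% of listed genes and 5.74% of those that passed. Akt1 thus had a rho of opposite sign in the genotypes, 0.68 and -0.38, a difference that was not tested. The number of genes detected had a rho of 0.22 with Igf2 in wildtype cells, and the partial rho of Akt1 there was -0.57. Without the 2 cells farthest from the median of Igf2 (KO cells 5 and 11; wildtype cells 13 and 20), rho was 0.80 over 10 KO and -0.30 over 7 wildtype cells for Akt1, and 0.36 and 0.39 for Igf1r. For Rheb, the only one of the genes at 1 RPKM or more in most cells, it was 0.049 in KO and 0.46 in wildtype cells, against -0.025 and -0.067 with all cells. Pearson's r of log2(RPKM + 1) was 0.50 for Akt1 and 0.36 for Igf1r in KO cells. In wildtype cells it was -0.0057 for Akt1, so by that measure Akt1 had almost no correlation there, and 0.057 for Igf1r. For Akt2 it was -0.97 in wildtype cells, which rests on wildtype cell 13. Over marker-positive cells rho was 0.5 or more in size for 3 of 8 genes in KO (Akt1 0.89, Akt2 0.71, Insr 0.57), against 47.3% of listed genes, and for 1 of 7 in wildtype (Igf1r 0.68), against 25.7%. Apart from Rheb, the genes were under 1 RPKM in most cells, so that many of their ranks order traces.

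**Figure D3:**
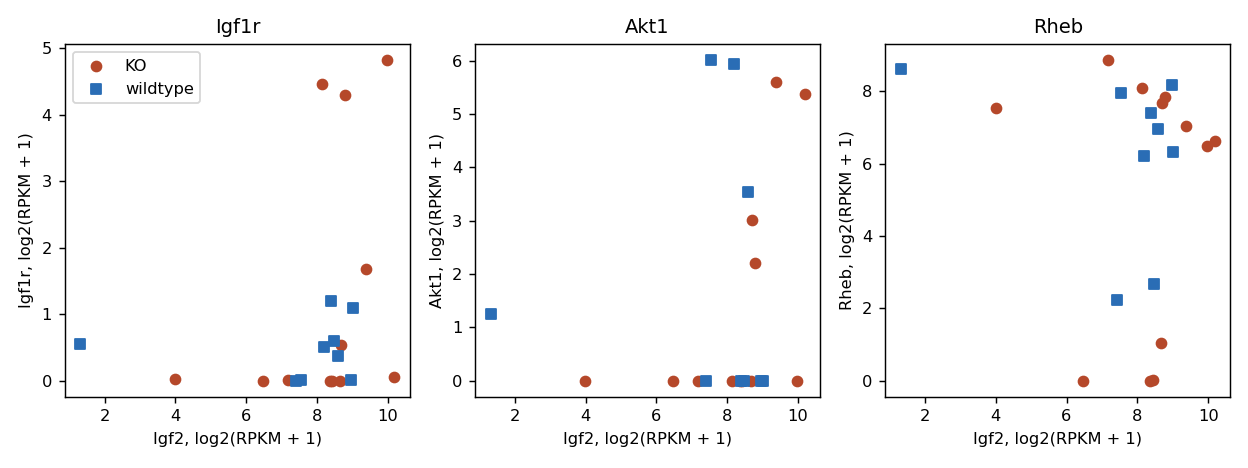
Igf1r, Akt1 and Rheb against Igf2, all as log2(RPKM + 1), each point a cell (12 KO, 9 wildtype). The wildtype point at the far left is cell 13, with Igf2 at 1.49 RPKM; Akt1 is at 0 in 8 KO and 5 wildtype cells.

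**Figure D4:**
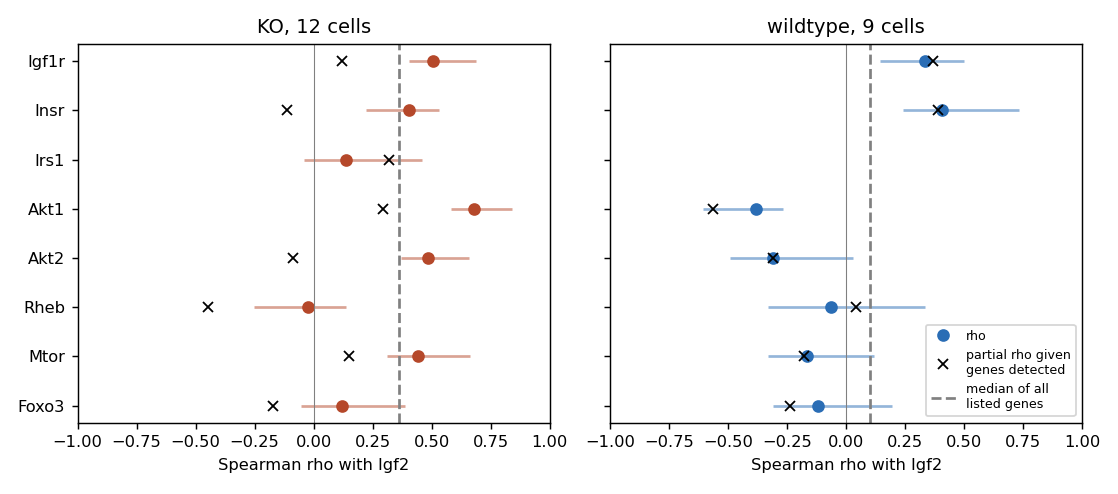
Spearman rho of each gene with Igf2 over 12 KO and 9 wildtype cells (points), its range when each cell is left out in turn (lines), the partial rho given the number of genes detected (crosses) and the median rho of all listed genes, 0.36 in KO and 0.099 in wildtype cells (dashed). In KO cells the crosses of Akt1 and Igf1r stand at 0.29 and 0.12, left of their points.

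Among 3865 other genes that passed the filter, the pattern most like that of Rheb over 21 cells was that of Sae1, a subunit of the SUMO activating enzyme, with a rho of 0.76, followed by Rps27rt, a ribosomal protein gene copy, also at 0.76. Within genotypes rho with Rheb was 0.90 in KO and 0.43 in wildtype cells for Sae1, and 0.73 and 0.67 for Rps27rt. Sae1 was detected in 8 of 12 KO cells, against 9 of 9 wildtype cells. Rps27rt can share reads with near-identical genes, so its value is uncertain. The number of genes detected had a rho of 0.13 with Rheb over 21 cells, 0.41 over KO cells and -0.47 over wildtype cells.

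Other genes of the pathway were taken from 7 lists with 125 genes, of which 109 were listed and 40 passed the filter. Of these 40, 8 were lower in KO by 1 or more on the log2 scale, 4 were higher and 28 differed by less, with a median of -0.44. Over all genes that passed the filter the shares were 28.0% and 11.4% and the median -0.36. A gene that passed only through the genotype in which it was high had to differ, so these counts describe the genes and support no difference of the lists. Over marker-positive cells 52 of the 109 passed, 15 higher and 8 lower by 1 or more, with a median of 0.36. Of all 5178 genes that passed there, 22.2% were higher and 20.4% lower by that size, with a median of 0.060. The same limit of the filter holds for these counts.

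Of the ligands, the decoy receptor and the binding proteins, 8 of 12 were listed and only Igf2 and Igfbp4 passed the filter. For Igf2 the mean log2(RPKM + 1) was 8.19 ± 1.68 over KO and 7.54 ± 2.40 over wildtype cells, and the difference of 0.64 became -0.14 without wildtype cell 13 and -0.31 over marker-positive cells. Igfbp4, which binds IGFs outside the cell, was detected in 9 of 12 KO cells, against 8 of 9 wildtype cells with a difference of -0.64. Igf1 was detected in 3 of 12 KO cells, against 4 of 9 wildtype cells, and Igf2r, the receptor that clears IGF2, in 3 of 12 and 3 of 9; both were chosen after their values were seen. Among receptor adaptors and PI3K subunits, 4 of 17 listed genes passed, 2 of them lower by 1 or more. Grb10, an imprinted adaptor that restrains these receptors, was detected in 6 of 12 KO cells, against 8 of 9 wildtype cells, with medians of 4.40 and 22.6 RPKM and a difference of -1.61. Shc1, an adaptor towards RAS, differed by -1.39 and Pik3ca, a catalytic PI3K subunit, by -0.78. Over marker-positive cells the differences were -0.19 for Igfbp4, -1.75 for Grb10, -0.80 for Shc1 and -1.52 for Pik3ca. None of these differences has a test.

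Among phosphatases and other brakes, 5 of 15 listed genes passed, 1 higher and 1 lower by 1 or more. Pik3ip1, which inhibits PI3K, was detected in 6 of 12 KO cells, against 2 of 9 wildtype cells, and the difference was 1.81. The tyrosine phosphatases Ptpn2 and Ptpn1, which act on receptor signals, differed by -1.29 and -0.95. Of the mTOR complex subunits and the Rag-Ragulator genes, 6 of 16 passed, 5 of them Lamtor genes, whose products hold mTOR complex 1 at the lysosome. Lamtor5 was detected in 9 of 12 KO cells, against 7 of 9 wildtype cells with a difference of -1.82, and Lamtor2 in 11 of 12 and 8 of 9 with one of 0.56. Akt1s1, an AKT substrate and inhibitor of mTOR complex 1, differed by -1.35. Over marker-positive cells the differences were 2.91 for Pik3ip1, -0.95 for Ptpn2 and 0.19 for Ptpn1. In those cells they were -0.70 for Lamtor5, 1.10 for Lamtor2 and -1.30 for Akt1s1.

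Of the mTOR complex 1 and AKT substrates, 8 of 17 passed, 1 in each direction by 1 or more. Bad, a cell death gene whose product AKT inactivates, was detected in 7 of 12 KO cells, against 2 of 9 wildtype cells, and the difference was 1.18. Eif4e, the cap-binding translation factor, differed by -1.05 and Rps6kb1, the S6 kinase, by -0.90. Of the FOXO factors and FOXO target genes, 7 of 20 passed, 2 higher and 1 lower by 1 or more. Cat, the catalase, was detected in 6 of 12 KO cells, against 2 of 9 wildtype cells, with medians of 20.2 and 0.636 RPKM and a difference of 2.00. Txnip, an inhibitor of thioredoxin and glucose uptake, was detected in 7 of 12 and 3 of 9 cells, with 1.56 as the difference. Cdkn1c, a cell cycle inhibitor, was detected in 9 of 12 and 9 of 9 cells, with -1.95 as the difference. Of the genes named from the lists, Pik3ip1, Bad, Cat, Txnip and Braf passed the filter through KO cells alone. Shc1, Pik3ca, Ptpn1 and Akt1s1 passed it through wildtype cells alone. In the RAS-MAPK branch 8 of 16 passed, with Braf, a kinase of the pathway, at 0.90 and Mapk3, the kinase ERK1, at -0.84. Over marker-positive cells the differences were 0.55 for Bad, -1.09 for Eif4e, -1.01 for Rps6kb1 and 2.40 for Cat. In those cells they were 2.85 for Txnip, -2.20 for Cdkn1c, 1.56 for Braf and -0.81 for Mapk3.

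Detection over all listed genes of each list, which needs no filter, differed little between the genotypes. The mean share of cells was 39.6% in KO and 41.7% in wildtype cells for ligands and binding proteins, 25.5% and 26.8% for adaptors and PI3K, 31.7% and 33.3% for the brakes, and 31.2% and 37.5% for mTOR complexes and Ragulator. It was 44.1% and 38.6% for the substrates, 32.1% and 30% for FOXO genes and 42.2% and 43.8% for the RAS-MAPK branch.

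**Figure D5:**
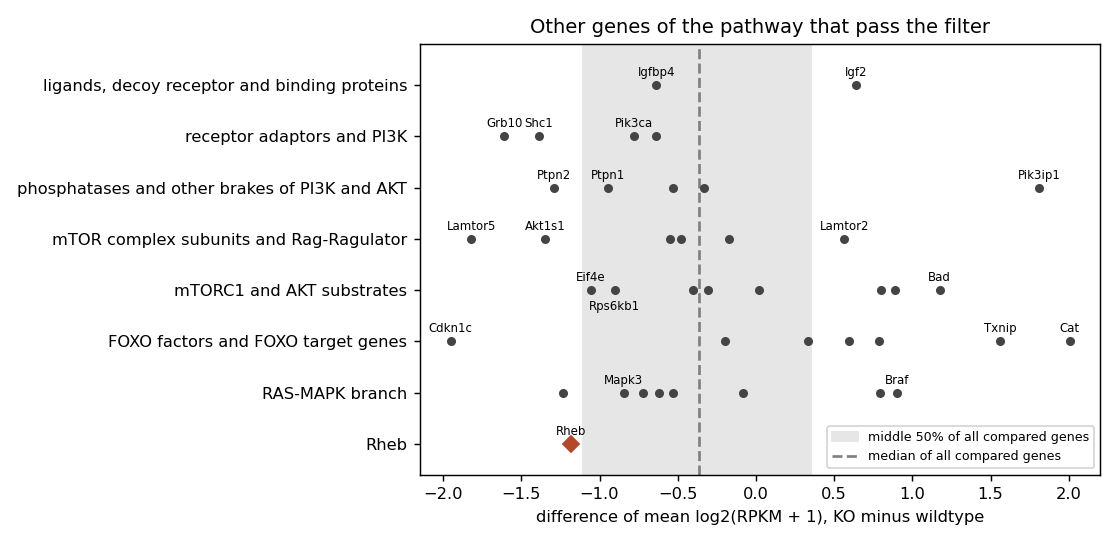
Difference of mean log2(RPKM + 1), KO minus wildtype, of the genes of each list that pass the filter (dots, most named genes labelled) and of Rheb (diamond, -1.18). The band holds the middle 50% of all 3867 genes that pass and the dashed line their median, -0.36; Cat, at 2.00, and Cdkn1c, at -1.95, stand farthest out.

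The direction turned when KO cells were restricted to those at or above the wildtype median of genes detected. These were KO cells 2, 4, 5 and 6, which exceed all 9 wildtype cells in that number and so are not matched to them. With them 6 of the 8 genes passed the filter, and all 6 were higher in KO by 1 or more, Akt1 by 2.19 and Rheb by 1.02. In that comparison 59.9% of all 7672 genes that passed were higher by 1 or more and 2.11% lower, with a median of 1.28.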

How the data were processed

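RNA of single T1 pre-HSCs was measured, per the labels, in 22 libraries made by a template-switching method. The values deposited by the authors are RPKM, with 1 column per cell. Per the submitters' processing notes, Cufflinks 2.1.0 and mm10 were used. An aligner, an annotation and a rule for multiply mapping reads were not given in the sources used here. Because RPKM is scaled to each cell's total, depth cannot be recovered, and an exact 0 can be a failed estimate. Cell numbers in the headers assigned the columns.

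KO and wildtype were compared by the difference of their mean log2(RPKM + 1); the pseudocount of 1 makes changes of low genes look smaller. A gene was compared if 50% or more of the cells of one genotype had 1 RPKM. Correlations were Spearman's, within genotype. Python 3.11.15, scipy 1.17.1 and pandas 2.3.3 were used, and the scripts were tested on simulated data. Named genes are all members, Igf2, H19, up to 3 genes per list with the largest differences that pass the filter, and the 2 genes most like each member detected in most cells (Rheb alone), with sex-linked and predicted genes passed over; 1 gene so chosen is not reported here. The members and lists were chosen with earlier results of these data known. Alternatives were other pseudocounts, scalings, filters, summaries and sets of cells.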

Additional observations from a re-analysis of the deposited data

Results flagged for a closer look

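In 3 of 8 genes with varying values, 1 of the 9 wildtype cells stood apart from the others on the log2(RPKM + 1) scale, with a gap to its neighbour above 0.493 of the whole range; chance gives about 1 such flag in 20 groups of normally distributed values, which these values, many of them 0 or traces, are not. Akt2 in wildtype cell 13 was high, with a gap of 0.983 of the range. Igf2 in the same cell was low, with a gap of 0.792. Mtor in wildtype cell 21 was high, with a gap of 0.509. Cell 13 had 2067 genes detected, the fewest among the wildtype cells compared, and its T1 pre-HSC markers summed to 5.36 RPKM, the lowest among them, where the median was 408 RPKM.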

How the results depend on the processing

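Rheb was the only member to pass the filter, so the median difference of -1.18 is its own. It was above 0 with 4 KO cells chosen by gene number (median of 6 members 1.14, Rheb 1.02), over cells with Xist under 1 RPKM (median of 2 members 0.64, Rheb 1.33) and without a filter (median of 8 members 0.096); the cause was not tested. Without each cell in turn it ranged from -1.52 to -0.72 and that of Rheb from -1.69 to -0.72; the ranges differ because Akt1 also passed the filter without wildtype cell 14, 15, 16, 17 or 20. The count of members lower by 1 or more, 1, was 0 with a pseudocount of 10, medians over cells, the log2 ratio of mean RPKM, without cells under 2000 genes, with the 4 KO cells, with Xist under 1 RPKM and over marker-positive cells, and ranged from 0 to 1 without each cell. The count higher by 1 or more, 0, was 6 of 6 members with the 4 KO cells, where 59.9% of all genes that passed were higher. With Xist under 1 RPKM it was 1 of 2 members, against 26.8% of all genes that passed. The count with a rho of 0.5 or more in size with Igf2 was 2 in KO cells. It was 1 by Pearson's r of log2 values and without cells under 2000 genes, 0 given the number of genes detected, and 4 with values under 1 RPKM set to 0, which was chosen after seeing the data. Without each KO cell it ranged from 1 to 5, with 1 without KO cell 4, 9 or 12 and 5 without KO cell 8. In wildtype cells, where it was 0, it was 1 by either Pearson's r, given the number of genes detected, with values under 1 RPKM set to 0, over marker-positive cells (also chosen after seeing the data) and with wildtype cell 19, and 0 to 1 without each cell, with 1 without wildtype cell 13, 16, 21 or 22. Rescaling to an equal total or median, run for the genotype differences, left both counts of large differences as they were. No paired analysis was possible because the KO and wildtype cells share no numbers.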
